A study of Mus musculus with 16 samples.

Results

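Calcineurin, the protein phosphatase that answers to calcium and calmodulin, was followed in the mouse hippocampus through 6 genes: the catalytic subunits Ppp3ca, Ppp3cb and Ppp3cc, the regulatory subunit Ppp3r1, and the regulators of calcineurin Rcan1 and Rcan2. They were chosen by name, with earlier results of these data known. These 6 genes are 6 of the 18287 gene names in the expression table, and their 21 transcripts are 21 of the 80137 transcripts in it. RNA was sequenced from 16 male wild type C57BL/6 mice of 3 months, 4 per group, and each library came from the hippocampi of a single mouse. Mice of 2 groups, helpless (LH) and non-helpless (NLH), had received 180 inescapable foot shocks of 0.4 mA, were tested 24 h later with 30 trials in which the shock could be escaped, and were sorted afterwards by how often and how slowly they escaped. Control (Ctrl) mice had been put in the shuttle box without the inescapable shocks and then took the same test, which itself delivers foot shocks, and homecage (HC) mice were neither handled nor tested. LH and NLH mice had the same induction and were told apart by behaviour, but an escape ended the shock in the test, so that LH mice, which escaped less, also spent longer under shock there. The groups carry no genetic change, and the tissue holds every cell type of the hippocampus. In such bulk tissue, fewer cells of a type and less RNA per cell cannot be told apart.

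Calcineurin is a heterodimer of a catalytic A subunit, which binds calmodulin, and a regulatory B subunit, which binds calcium. When calcium enters a neuron the enzyme is switched on and removes phosphate groups from NFAT transcription factors, from inhibitor-1 (Ppp1r1a) and from proteins of the synaptic vesicle cycle such as dynamin 1. In the hippocampus it is best known for its part in long-term depression and in weakening synapses after modest calcium signals. Ppp3ca and Ppp3cb are the brain forms of the A subunit and Ppp3cc is the form known from testis. Ppp3r1 encodes the B subunit of somatic tissues. Rcan1 and Rcan2 proteins bind the A subunit and restrain it, and the short Rcan1 transcript starts at an internal promoter that NFAT activates, so that it is often read as a sign of calcineurin activity.

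The catalytic genes share a 30-base exon near the end of the coding sequence that is kept in some transcripts and skipped in others. It is printed here because the transcripts with and without it are compared further on. The sequences were read on the coding strand of GRCm38, at chr3:136932011-136932040 (+) for Ppp3ca, chr14:20503247-20503276 (-) for Ppp3cb and chr14:70220017-70220046 (-) for Ppp3cc, and capitals mark the 13 bases that are the same in all 3 genes.
Ppp3ca: CtActgttGAgGCtattGAGGctgatgAAG
Ppp3cb: CcAcagttGAgGCtattGAGGctgaaaAAG
Ppp3cc: CcAaacaaGAaGCcgcaGAGGagcgggAAG
The Ppp3ca and Ppp3cb exons were identical at 26 of 30 bases, whereas the Ppp3cc exon shared 14 with Ppp3ca and 15 with Ppp3cb. The length of 30 bases keeps the reading frame whether the exon is kept or skipped.

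The values are FPKM, fragments scaled to transcript length and to the number of mapped fragments, and a gene's level is the sum over its transcripts. Levels of single mice are given without division by the median-ratio size factors, which were highest in LH mice 1 and 2 and lowest in LH mouse 4. How the mice rank after such division was not computed. Depth was estimated from the smallest steps of the values and came to 20130000 to 38020000 fragments per mouse, with 20130000 to 28030000 in LH mice and 26830000 to 38020000 in the others. LH mice 3 and 4 stood apart, with 10846 and 15504 transcripts listed at 0 against 4872 to 7352 in the other 14 mice, so the main results on LH are also given without them. Hippocampal subfield markers (5 of 5) and neuronal markers (6 of 6) were present and none was at 0 in any group.

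Ppp3ca was by far the most abundant member. Over the 16 mice it averaged 247.9 FPKM and ranked 17th of 18287 gene names, followed by Ppp3r1 at 151.5 FPKM (rank 39), Ppp3cb at 56.8 (rank 235), Rcan2 at 14.0 (rank 1637), Rcan1 at 5.79 (rank 4376) and Ppp3cc at 2.55 (rank 7600). This order held for each pair of neighbours in 16 of 16 mice. The lowest mouse for the higher gene lay above the highest mouse for the lower gene at every step except the last, between Rcan1 and Ppp3cc, whose ranges met across mice although Rcan1 was the higher gene within every mouse. Within a mouse there was 1.446 to 1.890 times as much Ppp3ca as Ppp3r1, and 2.421 to 3.119 times as much Ppp3r1 as Ppp3cb. The testis form Ppp3cc made up 0.652 to 1.04% of the summed catalytic FPKM.

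**Figure D1:**
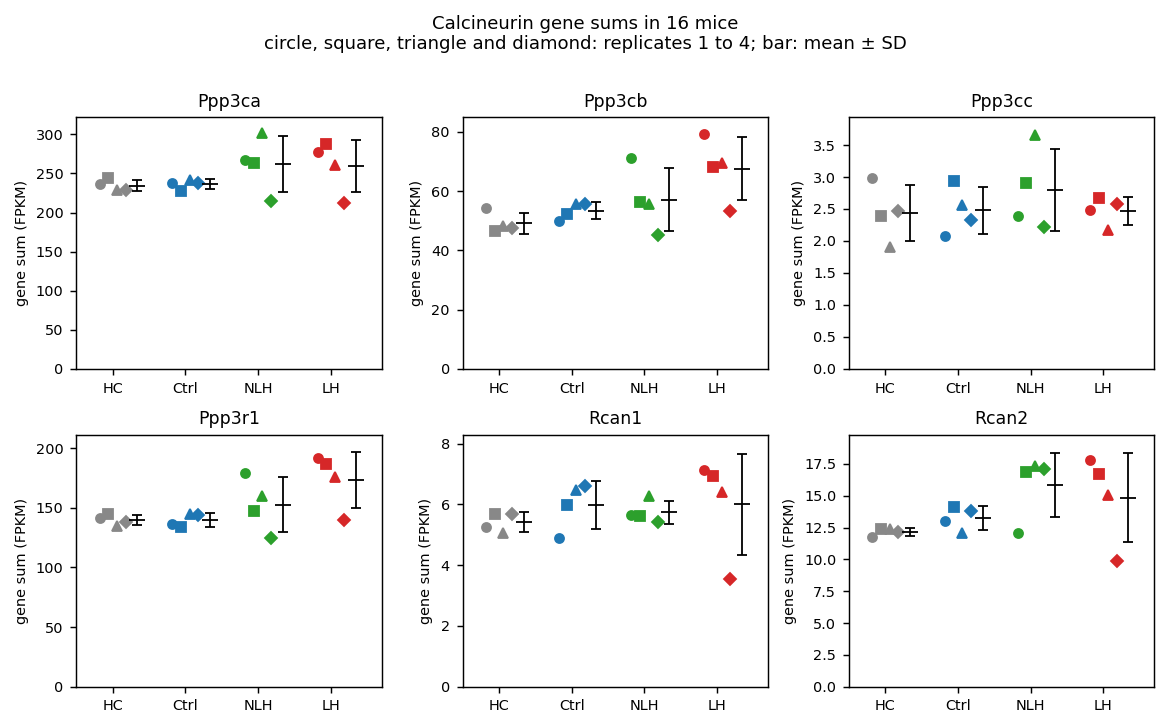
Gene sums in FPKM (vertical axes from 0) of the 6 calcineurin genes in the 4 groups, with a point for each of 4 mice and a bar for mean ± SD. For Ppp3ca and Ppp3r1 the HC and Ctrl points lie close together, while the NLH and LH points spread widely and mouse 4 is the lowest of its group in both.

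Ppp3ca, the main catalytic subunit, measured 237.7, 227.2, 241.6 and 238.3 FPKM in the 4 Ctrl mice and 277.2, 287.6, 260.3 and 212.0 in the 4 LH mice. It was 267.0, 263.5, 301.8 and 214.7 in NLH and 236.8, 243.6, 229.2 and 228.4 in HC. Before division by the size factors, 3 mice in LH and in NLH lay above every Ctrl mouse and mouse 4 lay below them all. The coefficient of variation was 3.04% in HC and 2.64% in Ctrl but 13.7% in NLH and 12.9% in LH. Of the 301.8 FPKM in NLH mouse 3, 31.9 came from the non-coding transcript Ppp3ca-204, which was at most 4.55 in every other mouse, and without it the NLH mean was 253.8 ± 26.2 FPKM (SD, n = 4) in place of 261.8 ± 35.8. The log2 difference was 0.12 for LH vs. Ctrl (SE 0.10, limma adjusted p = 0.684) and 0.14 for NLH vs. Ctrl (SE 0.10, adjusted p = 0.982). After division by the size factors the NLH vs. Ctrl difference was 0.06, where the median over all gene names went from 0.06 to -0.0006.

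Ppp3cb, the second brain form, measured 49.9, 52.3, 55.7 and 55.8 FPKM in Ctrl and 79.2, 68.3, 69.6 and 53.4 in LH. NLH mice gave 71.1, 56.2, 55.7 and 45.3, and HC mice 54.3, 46.5, 48.2 and 47.6. LH mice 1 to 3 were above every Ctrl and HC mouse, LH mouse 4 fell within the Ctrl range, and NLH mouse 1 lay among the LH values. The LH mean of 67.6 ± 10.6 FPKM was 1.27 times the Ctrl mean of 53.4 ± 2.85. On the log2 scale the difference was 0.33 (95% interval 0.05 to 0.60), which did not pass after adjustment over all gene names (limma adjusted p = 0.346). It was 0.25 for LH vs. NLH (95% interval -0.03 to 0.52, adjusted p = 0.698) and 0.08 for NLH vs. Ctrl (adjusted p = 1).

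Ppp3r1, the calcium-binding B subunit, behaved much like Ppp3cb. It measured 136.5, 133.8, 145.0 and 143.9 FPKM in Ctrl and 191.6, 187.1, 176.1 and 139.8 in LH. NLH mice gave 179.3, 147.3, 159.7 and 124.3, and HC mice 141.6, 145.0, 135.1 and 137.9. Again LH mice 1 to 3 lay above all Ctrl and HC mice while LH mouse 4 lay inside the Ctrl range. The LH mean of 173.7 ± 23.5 was 1.24 times the Ctrl mean of 139.8 ± 5.49, with a log2 difference of 0.30 (95% interval 0.07 to 0.54, limma adjusted p = 0.305). It was 0.19 for LH vs. NLH (95% interval -0.05 to 0.42, adjusted p = 0.730) and 0.12 for NLH vs. Ctrl (adjusted p = 0.997). Nearly all of it was the coding transcript Ppp3r1-201, at 137.2 ± 5.49 in Ctrl and 170.4 ± 24.5 in LH (log2 difference 0.30, adjusted p = 0.371, or 0.45 and 0.0841 without LH mice 3 and 4), and the non-coding Ppp3r1-202 averaged 2.54 FPKM. Ppp3r1 lies at chr11:17159263-17200375 and overlaps Wdr92 on the same strand, so reads in the shared part could have been given to either gene.

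Ppp3cc (chr14:70217865-70289471, minus strand) differed between groups by less than its spread within them, with group means of 2.48 ± 0.366 FPKM in Ctrl, 2.47 ± 0.218 in LH, 2.79 ± 0.644 in NLH and 2.44 ± 0.441 in HC. Its log2 difference for LH vs. Ctrl was 0.00 with an SE of 0.17, and its interval of -0.37 to 0.37 is wide enough to hold the difference seen for Ppp3cb. It overlaps Gm49288 on the same strand and Gm49417 on the opposite one, and such reads could have been given to either gene.

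In none of the 4 comparisons did a calcineurin gene pass the adjusted threshold of 0.05 (limma, 0 of 6 each time). The share of all gene names that passed was 0% for Ctrl vs. HC, 0.00547% for NLH vs. Ctrl, 0% for LH vs. Ctrl and 0.0109% for LH vs. NLH. At an unadjusted p under 0.05, 2 of 6 were higher in LH than in Ctrl (Ppp3cb and Ppp3r1) beside 11.5% of all gene names, and 0 of 6 differed in Ctrl vs. HC, NLH vs. Ctrl or LH vs. NLH beside 2.7%, 5.59% and 7.54%. The equal-variance test on FPKM that the study's methods give also picked Ppp3cb and Ppp3r1 for LH vs. Ctrl at 0.05, without adjustment, beside 7.89% of all gene names, and 0 members for Ctrl vs. HC, NLH vs. Ctrl and LH vs. NLH beside 8.39%, 9.45% and 3.44%. A moderated F test over the 4 groups (limma) gave an adjusted p = 0.398 for Ppp3cb and an adjusted p = 0.497 for Ppp3r1, and passed 0 of 6 after adjustment beside 0.0766% of all gene names. Before adjustment it passed these 2 of 6 beside 9.96%.

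The median log2 difference of the 6 genes was 0.08 for Ctrl vs. HC, 0.13 for NLH vs. Ctrl, 0.13 for LH vs. Ctrl and 0.00 for LH vs. NLH. Among all gene names with a mean of at least 1 FPKM the medians were 0.03, 0.08, 0.03 and -0.05. For no member did all 4 LH mice lie above all 4 Ctrl mice (0 of 6 beside 4.05% of gene names), nor all 4 NLH mice (0 of 6 beside 4.76%).

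**Figure D2:**
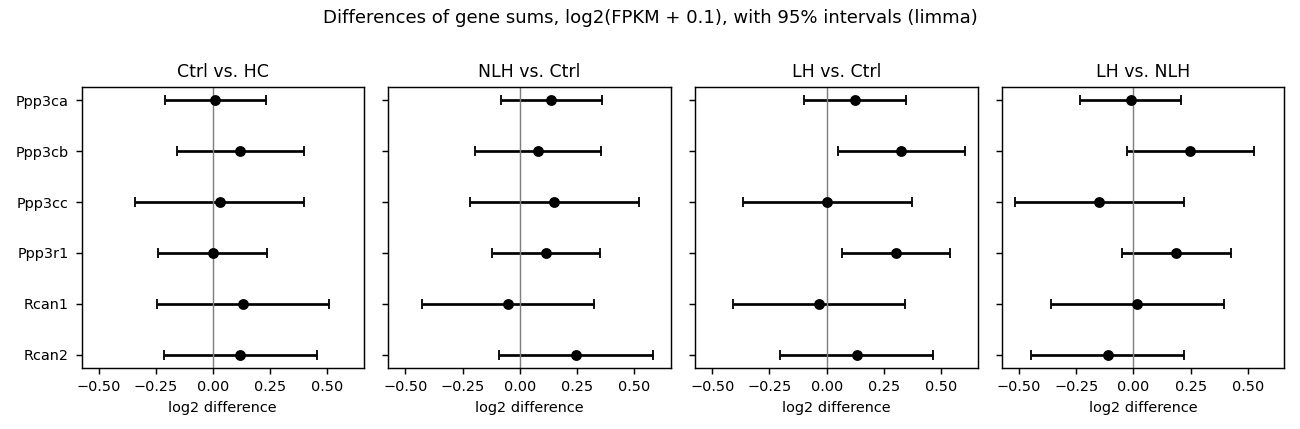
Log2 differences of gene sums (points) with 95% intervals (bars) for the 6 genes in the 4 comparisons, from limma on log2(FPKM + 0.1), with a vertical line at 0. Only the intervals of Ppp3cb (0.05 to 0.60) and Ppp3r1 (0.07 to 0.54) for LH vs. Ctrl leave out 0, before any adjustment.

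The LH values depended on LH mice 3 and 4. Without them the LH vs. Ctrl difference became 0.46 for Ppp3cb (adjusted p = 0.059), 0.44 for Ppp3r1 (adjusted p = 0.0345), 0.26 for Ppp3ca (adjusted p = 0.124) and 0.38 for Rcan2 (adjusted p = 0.0877). Ppp3cc stood at 0.06 and Rcan1 at 0.24 (adjusted p = 0.236). The median over all gene names moved from 0 to 0.19 at the same time, and the share of gene names past the adjusted threshold from 0% to 5.41%. For LH vs. NLH, again without these 2 mice, the differences were 0.38 for Ppp3cb (adjusted p = 0.226), 0.32 for Ppp3r1 (adjusted p = 0.208) and 0.29 for Rcan1 (adjusted p = 0.276), with a median over all gene names of 0.13. With every LH mouse kept and NLH mouse 4 left out, LH vs. NLH fell to 0.14 for Ppp3cb and 0.09 for Ppp3r1. Mouse weights, set by how well each mouse fitted its group, were 1.59, 0.691, 0.282 and 0.106 in LH mice 1 to 4. They lean on LH mice 1 and 2, the only LH mice in the fit without mice 3 and 4. With these weights Ppp3cb reached 0.46 (adjusted p = 0.0244) and Ppp3r1 0.41 (adjusted p = 0.017), with the median over all genes at 0.12 and 5.29% of all gene names past the adjusted threshold. Without LH mouse 1, on the other hand, both differences dropped to 0.25 and neither passed 0.05 before adjustment. Neuronal markers were also higher in LH mice 1 and 2, the mice with the highest size factors. Their summed level, not divided by these factors, was 590.3 to 640.0 FPKM in Ctrl and 723.1, 737.4, 633.3 and 550.1 in LH mice 1 to 4. Oligodendrocyte markers (3 of 4 listed, none at 0) summed to 279.5 to 376.4 FPKM in Ctrl, 333.5 to 366.0 in HC and 400.3, 443.4, 403.4 and 242.3 in LH mice 1 to 4, so that LH mice 1 to 3 lay above every Ctrl and HC mouse and mouse 4 below them all. Striatal markers (7 of 7 measured, none at 0) summed to 14.6 to 17.2 FPKM in Ctrl and 21.8, 25.1, 18.2 and 13.8 in LH, and 2 of the 7 were higher at an unadjusted p under 0.05, among them Drd1 by 0.63. At the same threshold 1 of 6 neuronal markers and 1 of 2 endothelial markers were higher in LH, and 0 of 5 hippocampal subfield, 0 of 4 astrocyte, 0 of 3 oligodendrocyte, 0 of 4 microglial, 0 of 4 choroid plexus and 0 of 4 red blood cell markers passed it. Of the 6 immediate early genes, Junb was listed at 0 in every HC, NLH and LH mouse, so no difference is read from it, and 0 of the other 5 passed that threshold. The part of these marker sums, and of the scale of the libraries, in the calcineurin differences was not tested.

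The proportions of the subunits within a mouse do not depend on how the library was scaled. The amount of Ppp3r1 relative to the summed catalytic genes was 0.471, 0.474, 0.484 and 0.485 in Ctrl and 0.534, 0.522, 0.530 and 0.522 in LH. All 4 LH mice, including mice 3 and 4 with their many transcripts at 0, lay above all Ctrl mice and above the HC range of 0.482 to 0.496. The means were 0.527 ± 0.00621 in LH and 0.479 ± 0.00703 in Ctrl, a difference of 0.0485 with an exact two-sided permutation p = 0.0286, the smallest that 4 against 4 mice allow. Adjusted over the 16 such tests made here, 4 quantities in 4 comparisons, it was 0.153. At 4 mice a group the adjusted value could fall under 0.05 only if at least 10 of the 16 tests gave the smallest p, and 3 did, so the adjusted values of these tests say little. How many ratios between other genes also separate LH from Ctrl was not counted, for this ratio or for the shares below. How unusual such a separation is was therefore not known. In the Ppp3r1 ratio NLH mice were spread from 0.442 to 0.526, with mouse 1 at the LH level and the other 3 at 0.442 to 0.474, so that LH vs. NLH gave an exact permutation p = 0.0857. The 0.442 was NLH mouse 3, whose catalytic sum of 361.2 FPKM included 31.9 from the non-coding Ppp3ca-204. That transcript lowers its ratio and its Ppp3cb share, which were not computed without it.

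The balance between the catalytic genes gave the same result, without overlap between LH and Ctrl. Ppp3cb made up 17.2, 18.5, 18.6 and 18.8% of the catalytic FPKM in Ctrl and 22.06, 19.04, 20.96 and 19.93% in LH. The difference of means was 2.22 percentage points (20.5 ± 1.31% against 18.3 ± 0.722%, exact permutation p = 0.0286, adjusted p = 0.153). The share of Ppp3ca was the mirror image, at 78.7 ± 1.25% in LH and 80.9 ± 0.801% in Ctrl (exact permutation p = 0.0286, adjusted p = 0.153), and the 3 quantities are tied to one another because they share their terms. The share of Ppp3cc was 0.762 ± 0.138% in LH and 0.850 ± 0.139% in Ctrl (exact permutation p = 0.4). NLH vs. Ctrl gave exact permutation p-values of 0.714 to 0.914 and Ctrl vs. HC of 0.0857 to 1.0, over the 4 quantities in each. Leaving out 1 mouse at a time kept the LH vs. Ctrl differences within 0.0461 to 0.0508 for the Ppp3r1 ratio and within 1.70 to 2.71 points for the Ppp3cb share, and without LH mice 3 and 4 they were 0.0494 and 2.27.

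**Figure D3:**
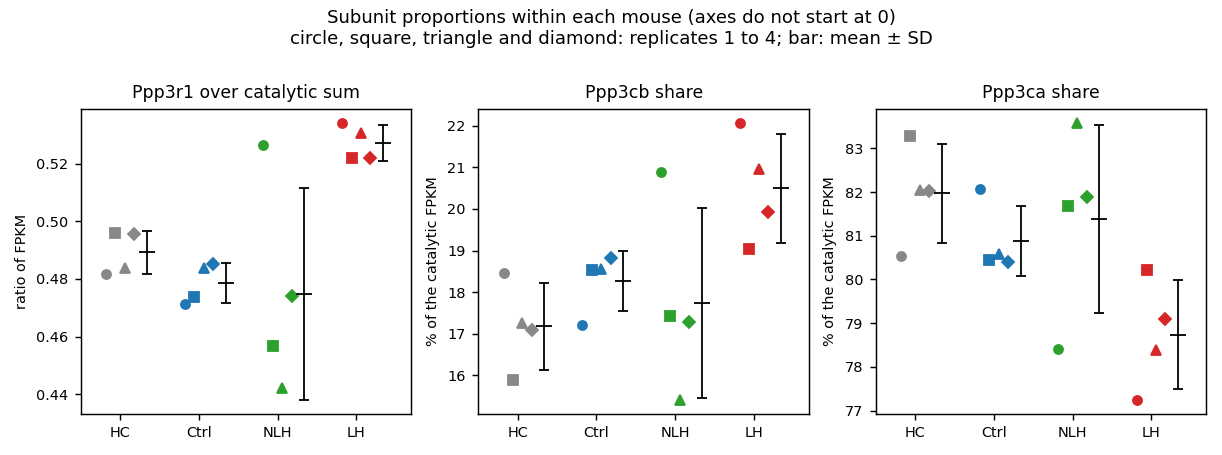
Ppp3r1 FPKM over the summed catalytic FPKM (left, a ratio) and the shares of Ppp3cb and Ppp3ca in the catalytic FPKM (middle and right, in percent), with a point per mouse and a bar for mean ± SD; the axes do not start at 0. The 4 LH mice lie above the 4 Ctrl mice in the first 2 panels and below them in the third, and NLH mouse 1 (0.526, 20.9% and 78.4%) lies near the LH mice in each.

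Ppp3cb is a gene of chr14:20499364-20546573 on the minus strand, and the table holds 8 of its transcripts. It overlaps 1810062O18Rik on the opposite strand, and since the strand setting of the libraries is not known, reads of the 2 genes may not have been told apart. The coding forms Ppp3cb-205 (47.5% of the gene's FPKM) and Ppp3cb-202 (11.1%) contain the 30-base exon, Ppp3cb-201 (30.6%) lacks it, and Ppp3cb-206 (5.20%) ends early and differs at its 3′ end. Ppp3cb-202 carries the longest final exon, reaching 504 bases further than Ppp3cb-205, to chr14:20499364-20499867, and shares 11 of its 14 exons with it exactly.

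Ppp3cb-202 was the transcript in which mice given the inescapable shocks lay apart from the rest. It measured 4.56, 5.07, 5.45 and 4.94 FPKM in Ctrl and 5.80, 5.57, 4.42 and 5.49 in HC, but 6.91, 6.64, 7.94 and 6.90 in NLH and 7.59, 7.82, 7.42 and 7.98 in LH. All 8 LH and NLH mice lay above all 8 HC and Ctrl mice, which was true of 1 of the 21 calcineurin transcripts and of 0.126% of all transcripts, a count made after its values were seen. The summed endothelial markers (Pecam1 and Flt1, 2 of 3 listed, neither at 0 in any group) were likewise higher in 7 of these 8 mice than in every HC and Ctrl mouse, at 4.80 to 5.61 FPKM in NLH and 5.91, 5.83, 3.80 and 11.8 in LH mice 1 to 4 against 2.63 to 4.70 in HC and Ctrl, and their part in the result was not tested. It was likewise the single member transcript with all LH mice above all Ctrl mice (1 of 21 beside 2.34%) and with all NLH mice above all Ctrl mice (1 of 21 beside 2.88%). Unlike the gene sum, it was no lower in LH mouse 4 than in the other LH mice. An estimated 474 to 944 fragments per mouse stood behind it.

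The LH mean of Ppp3cb-202 was 1.54 times and the NLH mean 1.42 times the Ctrl mean. The log2 difference for LH vs. Ctrl was 0.61 (SE 0.10, 95% interval 0.40 to 0.83), just outside the adjusted threshold (limma adjusted p = 0.0503). Under the 24 alternatives that gave an adjusted p, its adjusted p ran from 0.0228 to 0.13 and was under 0.05 in 7, with differences of 0.54 to 0.66. Without LH mice 3 and 4 it was 0.62 (adjusted p = 0.0467), where 0.413% of all transcripts passed. For NLH vs. Ctrl the difference was 0.50 (95% interval 0.28 to 0.71, adjusted p = 0.249), against the same 4 Ctrl mice. LH and NLH differed by 0.12 (adjusted p = 0.718) and Ctrl and HC by -0.08. Relative to the other transcripts of the gene, Ppp3cb-202 was higher by 0.33 in LH vs. Ctrl, with an interval of -0.29 to 0.94 that includes 0 (adjusted p = 0.716), and the isoform ratio for NLH vs. Ctrl was 0.47 (adjusted p = 1).

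The other 3 coding forms of Ppp3cb had positive differences for LH vs. Ctrl too, none past the adjusted threshold, and 3 of the 4 retained-intron transcripts had negative ones. Ppp3cb-206 measured 2.38, 2.15, 3.63 and 2.41 FPKM in Ctrl and 3.33, 4.48, 3.84 and 3.75 in LH, a log2 difference of 0.55 (adjusted p = 0.307), and it was 0.47 above NLH (adjusted p = 0.501). Ctrl mouse 3 was the exception, lying above the lowest LH mouse. Without LH mice 3 and 4 these differences were 0.56 (adjusted p = 0.286) and 0.48 (adjusted p = 0.472). The main form Ppp3cb-205 was 25.7 ± 0.940 FPKM in Ctrl and 31.5 ± 4.64 in LH (log2 difference 0.28, adjusted p = 0.447), and Ppp3cb-201 was 16.4 ± 0.762 and 21.2 ± 5.54 (log2 difference 0.33, adjusted p = 0.582). The retained-intron transcripts averaged 0.139 to 1.84 FPKM, with log2 differences of -1.78 for Ppp3cb-204 (adjusted p = 0.440, listed at 0 in LH mice 3 and 4), -0.67 for Ppp3cb-207, -0.10 for Ppp3cb-208 and 0.40 for Ppp3cb-203.

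**Figure D4:**
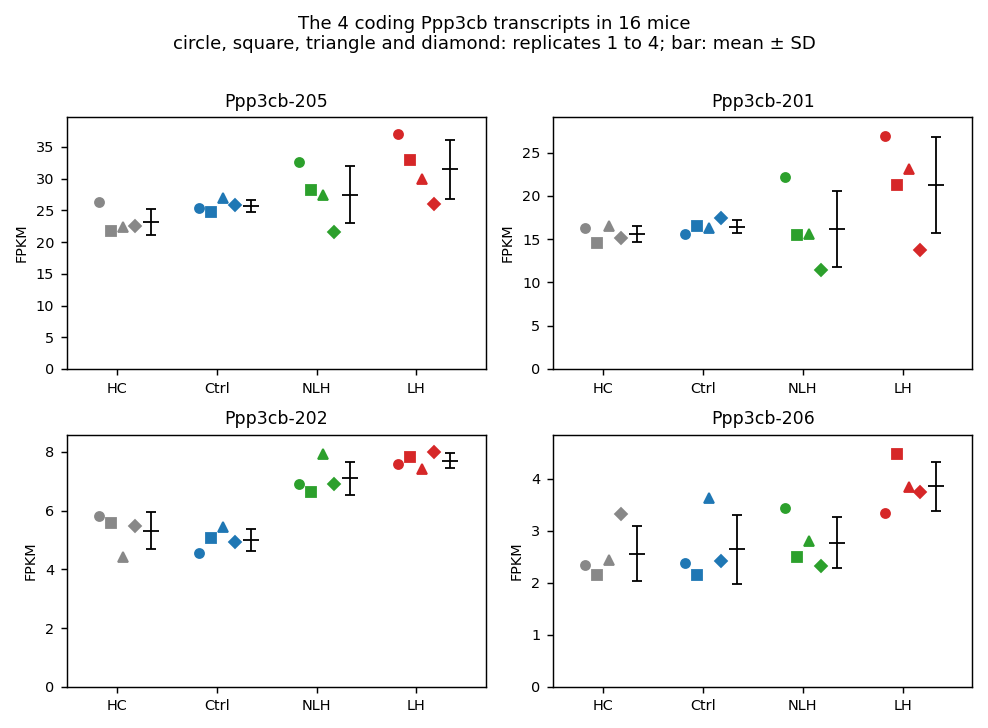
FPKM (axes from 0) of the 4 coding Ppp3cb transcripts, with a point per mouse and a bar for mean ± SD. In Ppp3cb-202 the NLH points (6.64 to 7.94) and LH points (7.42 to 7.98) all lie above the HC and Ctrl points (4.42 to 5.80), and in the other 3 panels LH and Ctrl overlap.

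Of the 21 member transcripts, 0 passed the adjusted threshold in each comparison (limma), beside 0.00374% of all transcripts for Ctrl vs. HC, 0.0125% for NLH vs. Ctrl, 0.0462% for LH vs. Ctrl and 0.0412% for LH vs. NLH. At an unadjusted p under 0.05, 4 were higher in LH than in Ctrl (Ppp3cb-202, Ppp3cb-205, Ppp3cb-206 and Ppp3r1-201) and 2 lower (Ppp3ca-205 and Ppp3cb-204), beside 10.7% of all transcripts. Against NLH, 2 were higher in LH (Ppp3ca-202 and Ppp3cb-206) and 1 lower (Ppp3ca-205), beside 8.72%. Only Ppp3cb-202 was higher in NLH than in Ctrl (1 beside 5.12%) and only Ppp3cb-207 higher in Ctrl than in HC (1 beside 3.45%). The equal-variance test on FPKM, without adjustment, picked Ppp3cb-202, Ppp3cb-206, Ppp3r1-201 and Ppp3ca-202 for LH vs. Ctrl (4 beside 7.73% of all transcripts), Ppp3cb-206 and Ppp3ca-205 for LH vs. NLH (2 beside 4.58%), Ppp3cb-202 and Rcan2-201 for NLH vs. Ctrl (2 beside 7.25%), and 0 for Ctrl vs. HC (6.71%). Of 20 isoform ratios, each a transcript against the rest of its gene, 0 passed after adjustment in any comparison, beside 0.00369%, 0.0111%, 0.0351% and 0.0461% of all ratios in Ctrl vs. HC, NLH vs. Ctrl, LH vs. Ctrl and LH vs. NLH. Before adjustment the counts were 1 (Ppp3cb-207), 0, 2 (Ppp3cb-204 and Ppp3ca-205) and 1 (Ppp3ca-205) of 20, beside 3.33%, 4.89%, 10.5% and 9.36%.

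Ppp3ca lies at chr3:136670124-136937727 and was carried by Ppp3ca-201, which contains the 30-base exon, and Ppp3ca-202, which skips it. Ppp3ca-202 measured 84.8, 74.0, 90.4 and 82.1 FPKM in Ctrl and 105.2, 96.9, 107.5 and 85.9 in LH, with 105.2, 74.3, 74.0 and 63.6 in NLH and 70.2 to 77.4 in HC. LH mice were mostly above the rest, with LH mouse 4 inside the Ctrl range and NLH mouse 1 at the LH level. The log2 difference was 0.25 for LH vs. Ctrl (adjusted p = 0.492) and 0.34 for LH vs. NLH (adjusted p = 0.470), and without LH mice 3 and 4 they were 0.29 (adjusted p = 0.418) and 0.37 (adjusted p = 0.383). The form with the exon, Ppp3ca-201, was 147.7 ± 1.52 FPKM in Ctrl, 155.6 ± 27.4 in LH, 169.4 ± 22.0 in NLH and 155.1 ± 7.598 in HC. Its log2 difference for LH vs. Ctrl was 0.06 (adjusted p = 0.884) with all mice and 0.25 (adjusted p = 0.251) without LH mice 3 and 4, near that of Ppp3ca-202.

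As a description, with no test, Ppp3ca-201 made up 64.1 ± 2.00% of the summed FPKM of Ppp3ca-201 and Ppp3ca-202 in Ctrl, 60.9 ± 3.62% in LH, 68.2 ± 5.75% in NLH and 67.7 ± 1.55% in HC. The Ctrl range of 61.8 to 66.6% overlapped the LH values of 61.1, 65.9, 57.8 and 58.8%. The NLH values were 59.7, 71.4, 72.1 and 69.6%, so that 3 NLH mice lay above every LH mouse and NLH mouse 1 did not. For Ppp3cb, over Ppp3cb-201, Ppp3cb-202 and Ppp3cb-205 alone, the forms with the exon were 65.1 ± 1.26% in Ctrl, 65.3 ± 4.34% in LH, 68.5 ± 3.11% in NLH and 64.6% on average in HC. Ppp3cc was represented by its exon-containing transcript alone.

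**Figure D5:**
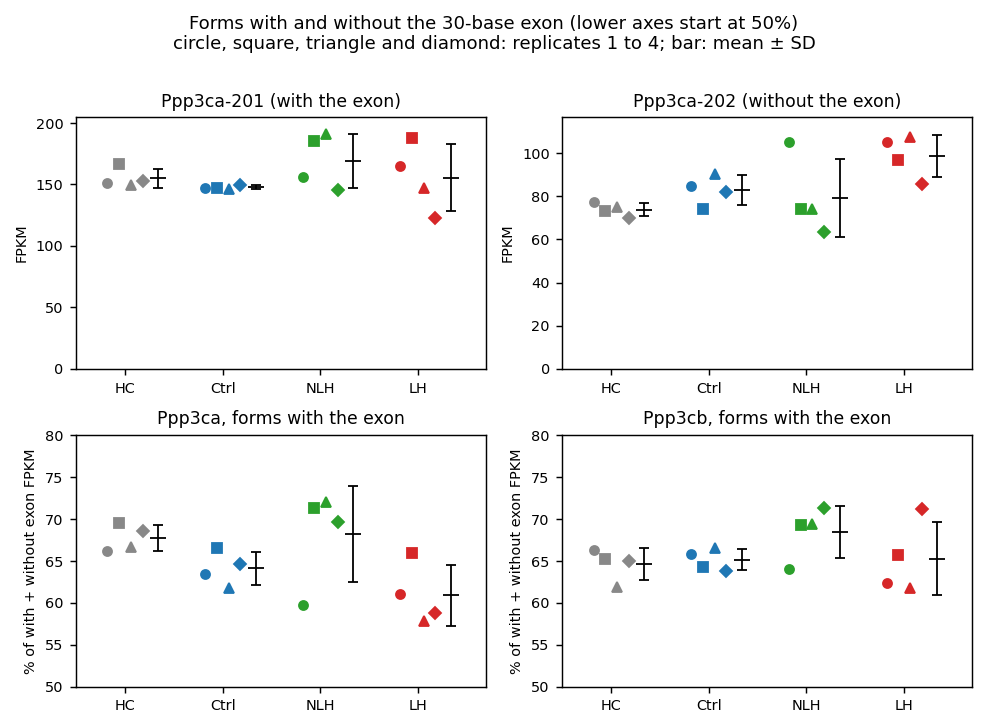
FPKM of the Ppp3ca transcripts with and without the 30-base exon (upper panels, axes from 0) and, for Ppp3ca and Ppp3cb, the forms with the exon as a percent of the FPKM of the coding forms that have or skip it (lower panels, axes from 50%), with a point per mouse and a bar for mean ± SD. The Ppp3ca form without the exon averages 98.9 FPKM in LH and 82.8 in Ctrl, and LH and Ctrl overlap in all 4 panels.

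The retained-intron transcript Ppp3ca-205 measured 4.57, 3.34, 1.07 and 3.19 FPKM in LH against 5.63, 4.49, 4.85 and 3.67 in Ctrl. The log2 difference was -0.75 for LH vs. Ctrl (adjusted p = 0.435) and -0.88 for LH vs. NLH (adjusted p = 0.476). Without LH mice 3 and 4 these shrank to -0.23 and -0.36, and an estimated 6.38 to 49.0 fragments per mouse stood behind the values. The annotation also places Gm42822 on the same strand within Ppp3ca, along with 2 genes on the opposite strand, and reads there could have been split between them.

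Rcan1 (chr16:92391953-92470867, minus strand) is transcribed from separate promoters, and both products were in the table. The long form Rcan1-202 starts at the upstream promoter, and the short form Rcan1-201 starts at the internal promoter that NFAT is known to act on. The 250 bases before each start are shown because they show how the promoters differ in the core letters of NFAT sites. The sequences are from RefSeq on GRCm38.p6, minus strand, at chr16:92466170-92466419 and chr16:92400079-92400328, and capitals mark GGAAA or its reverse complement TTTCC.
Rcan1 upstream promoter: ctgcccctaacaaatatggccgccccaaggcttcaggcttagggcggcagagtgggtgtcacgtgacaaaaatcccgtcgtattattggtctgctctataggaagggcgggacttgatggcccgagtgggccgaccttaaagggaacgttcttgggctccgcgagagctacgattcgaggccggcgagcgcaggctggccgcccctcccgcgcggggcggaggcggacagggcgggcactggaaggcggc
Rcan1 internal promoter: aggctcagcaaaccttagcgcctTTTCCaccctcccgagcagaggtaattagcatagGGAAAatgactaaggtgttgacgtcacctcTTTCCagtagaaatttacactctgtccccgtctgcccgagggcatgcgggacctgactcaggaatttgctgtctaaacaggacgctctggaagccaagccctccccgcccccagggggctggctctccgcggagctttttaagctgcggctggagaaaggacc
The internal promoter held 3 matches, 1 forward and 2 reverse, and the upstream promoter 0. The letters are common: 55.6% of 32851 promoters of this length held at least 1 match on either strand, and 6.39% held 3 or more. Of the other members in the same table, the Ppp3cb promoter held 3, all reverse, the Ppp3r1 promoter 0, and the 3 Rcan2 promoters 2, 0 and 0.

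Most Rcan1 RNA was the long form in every mouse. Rcan1-202 averaged 5.38 FPKM over the 16 mice and the short Rcan1-201 0.406, ranging from near 0 to 1.72, or from near 0% to 33.99% of the gene (the highest in HC mouse 3). The short form measured 0.373, 0.305, 0.169 and 0.252 FPKM in Ctrl, 0.967, near 0, 0.195 and 0.410 in NLH, and 0.363, 0.867, 0.00388 and 0.00339 in LH. In HC it was near 0 in 2 mice and 0.868 and 1.72 in the others. No group stood above another, and with an estimated median of 18.9 fragments per mouse, shared with the long form over most of its length, no difference was detectable at this depth. Rcan1 overlaps Gm46555 on the opposite strand.

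The Rcan1 gene sum was 4.89, 5.98, 6.48 and 6.60 FPKM in Ctrl and 7.14, 6.94, 6.41 and 3.56 in LH, and averaged 5.42 ± 0.319 in HC and 5.74 ± 0.371 in NLH. Before division by the size factors, LH mice 1 and 2 were the highest of all 16 and LH mouse 4 the lowest. These were also the mice with the highest and the lowest factors, and the part of the factors in these ranks was not tested. The LH mean of 6.01 ± 1.66 equalled the Ctrl mean of 5.98 ± 0.779 within its spread. The log2 difference was -0.03 (adjusted p = 0.9748) and became 0.24 without LH mice 3 and 4 (adjusted p = 0.236).

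Rcan2 (chr17:43801351-44039516), the more abundant inhibitor, measured 13.1, 14.1, 12.0 and 13.8 FPKM in Ctrl and 11.8, 12.4, 12.4 and 12.1 in HC. In NLH it was 12.1, 16.9, 17.3 and 17.1, and in LH 17.8, 16.7, 15.1 and 9.85. In each of these groups 3 of 4 mice were above every Ctrl and HC mouse, and the exceptions were NLH mouse 1 and LH mouse 4. Summed oligodendrocyte markers placed the same mice above every Ctrl and HC mouse, with the same exceptions. They were 344.8, 406.1, 442.7 and 392.8 FPKM in NLH mice 1 to 4, against at most 376.4 in Ctrl and HC. Their part in the Rcan2 values was not tested. For Rcan2 the log2 difference was 0.24 for NLH vs. Ctrl (SE 0.16, adjusted p = 0.982), or 0.17 after division by the size factors. It was 0.13 for LH vs. Ctrl (SE 0.16, adjusted p = 0.791), 0.38 without LH mice 3 and 4 (adjusted p = 0.0877) and 0.03 without LH mouse 1. Rcan2 overlaps Gm24532 on the opposite strand. Most of it was Rcan2-201, with group means of 11.2 ± 0.733 FPKM in Ctrl, 13.4 ± 1.41 in NLH, 13.3 ± 3.13 in LH and 10.5 ± 0.527 in HC. Its NLH vs. Ctrl difference was 0.26 (limma adjusted p = 0.994), and the equal-variance test on FPKM picked it at 0.05 without adjustment. The second form, Rcan2-202, averaged 1.76 FPKM and was at 0.000185 in NLH mouse 1. Set against the enzyme, Rcan1 and Rcan2 together amounted to 6.59% of the catalytic FPKM in Ctrl, 6.83% in NLH, 6.26% in LH and 6.15% in HC.

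Around the enzyme, 38 other genes of the calcineurin pathway were listed: further inhibitors and anchors, calmodulin, substrates, and the transcription factors and kinases on which it converges. With the 6 members, 44 of 44 were measured and 0 passed the adjusted threshold in any comparison (smallest limma adjusted p = 0.161). At an unadjusted p under 0.05, 7 of the 44 were higher and 2 lower in LH than in Ctrl, against 1286 higher and 821 lower of 18287 gene names, and their median difference was 0.01. The 7 were Ppp3cb, Ppp3r1, Akap5, Gsk3b, Mef2c, Pacsin1 and Prkar2b, and the 2 were Crtc2 and Calm3. The counts were 1 and 1 for NLH vs. Ctrl (beside 811 and 212 of all gene names), 1 and 0 for Ctrl vs. HC (beside 295 and 198), and 1 and 2 for LH vs. NLH (beside 502 and 876). The medians were 0.08, 0.05 and -0.01, beside 0.06, 0.02 and -0.06 for all gene names.

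The pathway counts turned on LH mice 3 and 4. Without them, a setting added for this list after its values were seen, 9 of the 44 passed the adjusted threshold in LH vs. Ctrl, all higher in LH, beside 5.41% of all gene names (951 higher and 38 lower), and the median of the 44 was 0.23 beside 0.19 for all gene names. The 9 included the subunit Ppp3r1 (0.44), Gsk3b (0.45, adjusted p = 0.0296), Pacsin1 (0.46, adjusted p = 0.0308), Prkar2b (0.56, adjusted p = 0.0310), Akap5 (0.43, adjusted p = 0.0451), Dnm1 (0.42, adjusted p = 0.0417), the dynamin that calcineurin dephosphorylates, Fkbp1a (0.43, adjusted p = 0.0411), the binding protein of the calcineurin inhibitor FK506, and Eps15 (0.30, adjusted p = 0.0468), an endocytic protein. Calm3 then differed by -0.08, Mef2c by 0.32 (adjusted p = 0.220) and Crtc2 by -0.45 (adjusted p = 0.149). In LH vs. NLH 0 of 44 passed without these mice, and before adjustment 14 were higher and 0 lower, beside 2477 and 329 of 18287 gene names. Dnm1, Fkbp1a and Eps15 are named after their values were seen.

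Among the proteins that anchor or restrain calcineurin, Akap5, the postsynaptic scaffold that holds it near glutamate receptors, was 7.18 ± 0.315 FPKM in Ctrl and 9.04 ± 0.848 in LH (log2 difference 0.33, adjusted p = 0.264). Rcan3 was 2.61 ± 0.181 and 2.38 ± 0.673, and Cabin1, a nuclear inhibitor, 2.74 ± 0.352 and 2.65 ± 0.922. Of the calmodulin genes, Calm3 was 205.3 ± 3.04 in Ctrl and 164.9 ± 37.1 in LH (-0.34, adjusted p = 0.315), with LH mouse 2 at 208.7 above the Ctrl mean. Gsk3b, a kinase that sends NFAT out of the nucleus, was 27.4 ± 1.06 in Ctrl and 35.3 ± 3.77 in LH (0.36, adjusted p = 0.168), and Dyrk1a, which primes NFAT for it, was 15.4 ± 1.11 and 17.6 ± 2.03.

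Of the transcription regulators it dephosphorylates, Mef2c was 30.0 ± 1.64 FPKM in Ctrl and 44.5 ± 9.49 in LH (0.54, adjusted p = 0.172), and Crtc2, a CREB coactivator, was 4.89 ± 0.789 in Ctrl and 2.84 ± 0.893 in LH (-0.81, adjusted p = 0.161). Crtc2 was also 0.60 lower than in NLH (adjusted p = 0.558), with LH mouse 3 the lowest at 1.64. Crtc3 differed by -0.44 in NLH vs. Ctrl (adjusted p = 0.878) and Mef2d by 0.39 in Ctrl vs. HC (adjusted p = 1). Of the synaptic and other substrates, Pacsin1, a partner of dynamin, was 0.34 higher in NLH (adjusted p = 0.606) and 0.33 higher in LH (adjusted p = 0.254) than in the same Ctrl mice. Prkar2b, a regulatory subunit of protein kinase A, was 3.95 ± 0.191 in Ctrl and 5.46 ± 1.11 in LH (0.44, adjusted p = 0.209) and 0.31 above NLH (adjusted p = 0.635). Synj1, a vesicle phosphatase, was 0.34 lower in LH than in NLH (adjusted p = 0.575). LH mouse 4 was its lowest LH mouse at 14.4 FPKM, and without LH mice 3 and 4 the difference was -0.21 (adjusted p = 0.362). Each gene with an adjusted p here was named because its unadjusted limma p was under 0.05.

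Across the 16 mice the brain subunits varied together, as a description over libraries that share depth and dissection. Pearson's r of log2 levels was 0.93 for Ppp3cb and Ppp3r1 (Spearman's rho 0.86), 0.82 for Ppp3ca and Ppp3r1 (rho 0.90) and 0.69 for Ppp3ca and Ppp3cb (rho 0.71). With group means removed they were 0.91, 0.87 and 0.68, and without LH mice 3 and 4 (n = 14) 0.93, 0.85 and 0.72. Rcan1 and Rcan2 had r = 0.66 (rho 0.48). Ppp3cc stood apart, with r of 0.12 to 0.44 to the other 5.

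Many genes followed the brain subunits as closely as they followed one another. Among 10435 other gene names with a mean of at least 1 FPKM, 64 had an r over 0.9 with Ppp3cb, 56 with Ppp3r1 and 31 with Ppp3ca, against 15 with Rcan1, 5 with Rcan2 and 0 with Ppp3cc. Nearest to Ppp3cb were Mtpn (r = 0.98), Tmem30a (0.98) and Bmpr2 (0.96), and nearest to Ppp3r1 were Col4a3bp (0.96), Nampt (0.96) and Cops2 (0.95). For Ppp3ca they were Scg2, Tbk1 and Atad1 (0.93 each). For Rcan1 they were Cry1 (0.94), Nacc2 (0.94) and Desi1 (0.93), for Rcan2 Acot11 (0.93), Larp1 (0.92) and Tbc1d30 (0.92), and for Ppp3cc Klf16 (0.82), Chtop (0.81) and Nol11 (0.78).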

How the data were processed

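Hippocampal total RNA of 16 mice (4 groups, 4 mice each) was sequenced as paired ends. The authors deposited FPKM per transcript, and the study's methods name HISAT2, StringTie v1.2.3 and Cufflinks on mm10, while the submitters' processing notes name STAR in place of HISAT2. Library strand and the limits of the authors' transcript filter were not given in the sources used here. FPKM were summed over each gene name and log2(FPKM + 0.1) was fitted with limma 3.58.1 in R 4.3.3 (4 group means, 16 mice, trend and robust moderation), with Benjamini-Hochberg adjustment over all 18287 gene names, 80137 transcripts or 54197 isoform ratios, and a threshold of 0.05. Subunit proportions were compared by exact two-sided permutation tests (scipy 1.17.1). The scripts were tested on simulated data. A fold on this scale understates the change of low values.

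Depth was estimated from 1962 loci with a single transcript over 2000 bases, assuming 200-base fragments, and 72.3 to 82.4% of their low values were then whole within 0.1 fragments. Such estimates cover counting error only. Transcripts were matched by ID to GENCODE M21 (GRCm38, the build named mm10), and 5 of the 21 differed in version. The 30-base exons come from that genome and the promoters from RefSeq.

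Members, pathway and marker lists were chosen with earlier results of these data known. Named were the 6 genes, the 2 most abundant transcripts of each, transcripts averaging at least 1 FPKM and pathway genes with an unadjusted p under 0.05 in any comparison, Rcan3, Cabin1, Akap5 and Dyrk1a, and the 3 genes most correlated with each member. Transcripts outside this rule are named only where a value turns on them, chosen after their values were seen. Replicate numbers did not pair the mice: over 24 pairs of same-numbered mice in different groups the median correlation of deviations was -0.023 (-0.0991 to 0.138). Alternatives were other amounts added to FPKM, a mean of at least 1 FPKM, median-ratio factors, only the 2 groups compared, mouse weights, a replicate block, the equal-variance test, and leaving out each mouse or LH mice 3 and 4. The values of some listed genes are not reported here.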

Additional observations from a re-analysis of the deposited data

Results flagged for a closer look

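Of 96 groups of 4 mice, 5 held a mouse whose gap to its nearest neighbour exceeded Dixon's 95% critical value as a share of the group's range, and chance gives about 5% of groups. Rcan2 was 12.1 FPKM in NLH mouse 1, against 16.9 in the nearest NLH mouse, and the same mouse had Rcan2-202 near 0. Among HC mice, Ppp3cb-205 was 26.3 in mouse 1 (nearest 22.5), Ppp3r1-202 was 2.88 in mouse 4 (nearest 1.93) and Rcan2-201 was 9.74 in mouse 4 (nearest 10.7). The share of Ppp3ca among the catalytic genes was 82.1% in Ctrl mouse 1 (nearest 80.6%). An unnamed assembled transcript, of 18 others at the member loci, lies where the assembly joined Ppp3cb to Usp54, and it averaged 0.510 FPKM in LH against at most 0.378 in any Ctrl or HC mouse.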

How the results depend on the processing

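Over 1916 alternative values, 98 changed sign, none of them a value with an unadjusted p under 0.05 on either side. For LH vs. Ctrl, the number of the 6 gene sums past the threshold went from 0 to 1 without LH mice 3 and 4 (Ppp3r1, beside 5.41% of all gene names), to 2 with mouse weights (beside 5.29%) and to 2 by the equal-variance test without adjustment (beside 7.89%), Ppp3cb and Ppp3r1 in both. Of the 44 pathway genes, 9 passed in place of 0 without LH mice 3 and 4. The number of transcripts past it went from 0 to 1 (Ppp3cb-202) with 0.01 added to FPKM (beside 0.0811% of all transcripts), with a mean of at least 1 FPKM (0.292%), and without LH mice 3 and 4 (0.413%), ranged from 0 to 1 when 1 mouse was left out (1 without HC 3, NLH 3, LH 1 or LH 2, beside 0.0449 to 0.387% of all transcripts), and was 4 by the equal-variance test. Those 4 stood beside 7.73% of all transcripts. That test gave 2 transcripts each for NLH vs. Ctrl (beside 7.25%) and LH vs. NLH (beside 4.58%). The counts for Ctrl vs. HC and for isoform ratios stayed at 0 under every alternative run. The cause of these shifts was not tested, beyond the fewer transcripts adjusted over where low ones were left out.

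The replicate numbers did not pair the mice, and with a replicate block the counts of member gene sums, transcripts and isoform ratios past the threshold were 0 in all 4 comparisons. For Ppp3cb in LH vs. Ctrl the unadjusted limma result no longer passed 0.05 without Ctrl mouse 1, LH mouse 1 or LH mouse 3, and for Ppp3r1 it no longer passed without LH mouse 1, where both differences were 0.25. Depth limits what can be said of Rcan1-201, Ppp3ca-203, Ppp3ca-204, Rcan2-203 and the retained-intron transcripts, each with an estimated median of at most 31.0 fragments per mouse. With 4 mice per group, exact tests cannot go below 0.0286.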
